A study of Homo sapiens with 6 samples.

Results

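Transcripts that mark pluripotent stem cells were followed in cultures that had been carried away from that state, to stage 6 of a pancreatic differentiation protocol. The 10 genes, POU5F1, NANOG, SOX2, LIN28, L1TD1, ZFP42, LEFTY1, DPPA4, PODXL and TDGF1, were taken by symbol from a table of 31410 gene symbols, in which each had 1 row. Cultures of the human embryonic stem cell lines H1 (differentiations 1 and 2) and HUES8 (differentiation 3) were each split into a live sample, extracted unfixed by the RNeasy protocol, and a processed sample. For the latter, cells went through paraformaldehyde fixation, permeabilization, antibody staining and a mock sort in which every cell was kept, and RNA was isolated with a modified RecoverAll kit, so that the kit and the processing cannot be told apart. All 6 samples contained insulin-expressing cells according to their labels, and each was measured on 1 Illumina expression array. HUES8 was represented by a single differentiation, so that the line and the differentiation cannot be told apart.

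Pluripotent cells are held in their state by the transcription factors OCT4, SOX2 and NANOG, which bind many of the same regulatory regions, often at a joined POU and SOX element, and switch each other on. RNA-binding proteins such as LIN28, which blocks maturation of the let-7 microRNAs, and the NODAL pathway with its feedback inhibitors LEFTY1 and LEFTY2 act around this core. POU5F1 and NANOG are lost in the course of endoderm differentiation. SOX2 is also a factor of neural progenitors and foregut, LIN28 is used in many fetal tissues, and PODXL is made by podocytes and several epithelia.

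INS, the insulin gene, lay between 1898 and 5069 in intensity on the 6 arrays. This shows insulin transcript in every sample but not the share of cells that made it, as no sample was sorted for insulin. The values below are therefore those of whole cultures. Values are normalized intensities, and comparisons between genes are not made because each gene has its own probes. Background was judged from 377 olfactory receptor genes, which these cells have no known use for. Their 95th percentile lay between 21.3 and 29.9 on the 6 arrays, and an intensity of 40 was the mark for testing. Of the 10 genes, 3 (POU5F1, NANOG and TDGF1) were below 40 on all 6 arrays. The other 7 reached 40 on at least 3 arrays and were tested among 12653 genes. ZFP42 and LEFTY1 did so on the H1 arrays alone, so that a difference between the lines is built into their passing. In bulk RNA, fewer cells that carry a transcript cannot be told apart from less of it per cell.

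**Figure D1:**
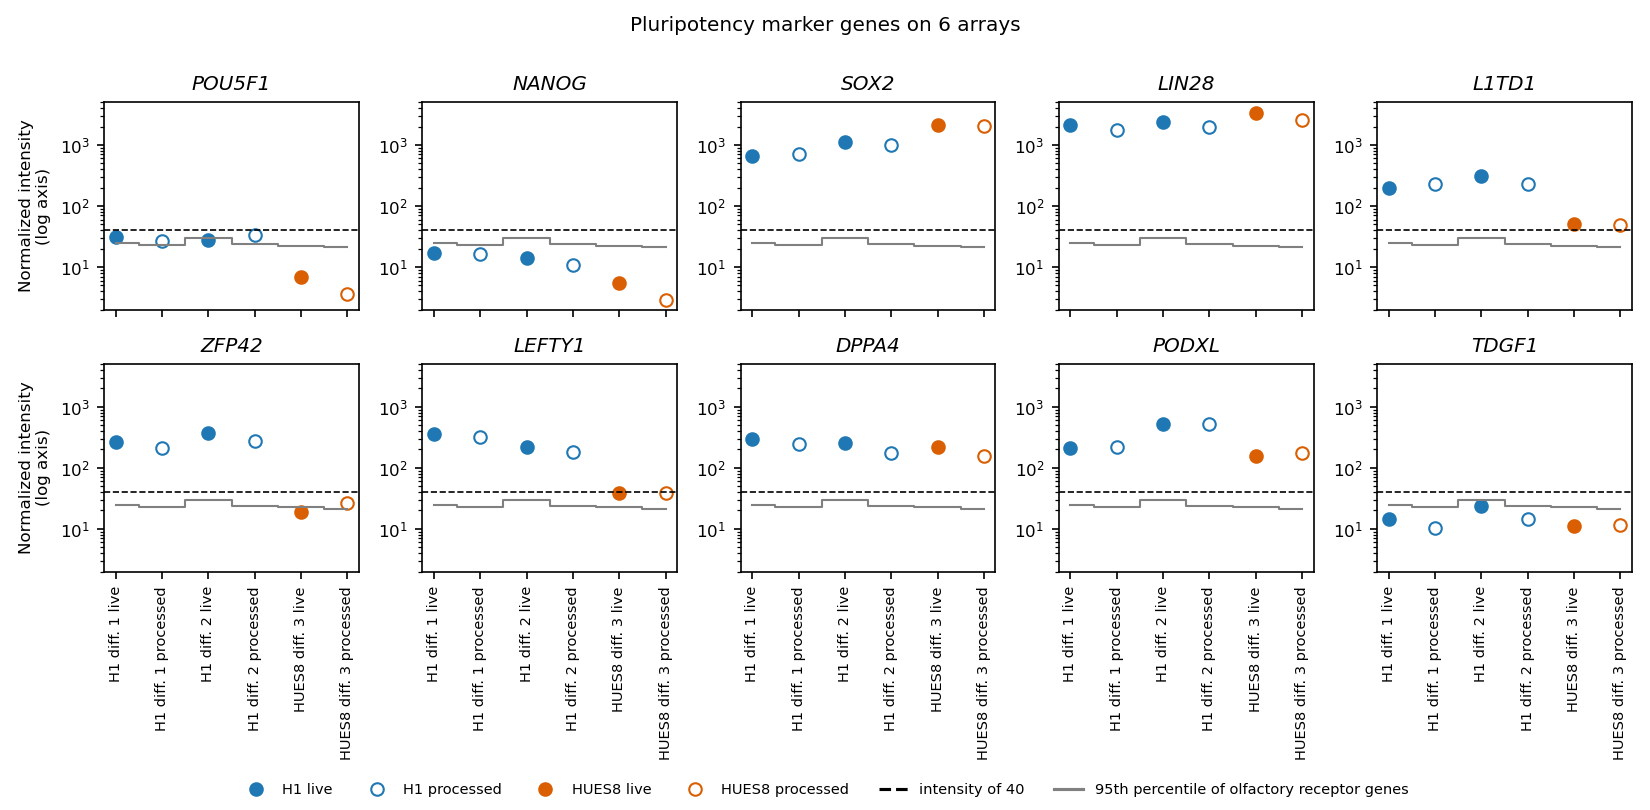
Normalized intensity (log axis) of the 10 genes on each of the 6 arrays, with filled circles for live and open circles for processed samples. NANOG and TDGF1 stay under the grey line of the olfactory receptor genes on all 6 arrays, whereas the lowest SOX2 value is 651 and the lowest LIN28 value 1756.

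POU5F1, which encodes OCT4, was near background in the HUES8 culture and just above it in most H1 samples. Its intensity was 30.7 live and 26.9 processed in H1 differentiation 1, 27.3 and 33.9 in differentiation 2, and 6.99 and 3.59 in HUES8. It exceeded the olfactory receptor percentile of the same array in 3 of 4 H1 samples and in 0 of 2 HUES8 samples, and both HUES8 values lay below all 4 H1 values. The table has a separate row for POU5F1P1, a near-identical retrogene copy named here after its values were seen. POU5F1P1 stood at 74.5 and 64.8 in H1 differentiation 1, 89.1 and 94.8 in differentiation 2, and 5.64 and 8.83 in HUES8, so that both HUES8 values lay far below all 4 H1 values. The row reached 40 on the H1 arrays alone, and with the HUES8 arrays set to 40 it was at least 1.67-fold lower in HUES8, given as a description. Signal of the parent gene and the copy may be shared between such probes, so the values of both are uncertain as to their gene. How far either row reports OCT4 transcript was not tested.

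NANOG, the homeodomain factor of the pluripotent core, stayed under the background mark in all samples. Its intensity was 16.9 and 16.3 in H1 differentiation 1, 14.2 and 10.8 in differentiation 2, and 5.56 and 2.85 in HUES8, live before processed. The HUES8 samples were the lowest pair, but all 6 values lay under the olfactory receptor percentile of their array, and no fold is given. The bases before the NANOG start are shown because they hold the joined element through which OCT4 and SOX2 are known to act on this gene. They are RefSeq sequence of GRCh38.p14, chr12:7789152-7789401 on the plus strand, 5′ to 3′, with the joined element in capitals.

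NANOG: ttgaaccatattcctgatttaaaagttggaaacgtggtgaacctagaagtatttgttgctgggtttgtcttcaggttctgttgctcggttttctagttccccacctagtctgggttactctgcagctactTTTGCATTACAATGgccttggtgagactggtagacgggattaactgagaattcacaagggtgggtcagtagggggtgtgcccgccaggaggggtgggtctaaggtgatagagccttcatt

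The element was searched as TTTGCATNACAATG on both strands, that is, the POU letters ATGCAAA read on the other strand, any base, and the SOX letters ACAATG, so every joined match also counts once for each of its parts. It spans positions -120 to -107 relative to the NANOG start. Of 35116 windows of 250 bases before RefSeq gene starts, 0.0057% (2 windows, of 2 genes) held it, against 3.94% for ATGCAAA alone, 9.29% for ACAATG alone and 13.7% for the second SOX form ACAAAG. A match describes letters and is no evidence of binding in these cells.

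SOX2, the SRY-related partner of OCT4, was strongly expressed in every culture and highest in HUES8. Its intensity was 651 live and 711 processed in H1 differentiation 1, 1107 and 1014 in differentiation 2, and 2124 and 2069 in HUES8. The 3 cultures did not overlap, in the order HUES8, H1 differentiation 2, H1 differentiation 1. On the log2(intensity + 20) scale, on which all differences are given and which understates changes of dim genes, HUES8 stood 1.28 above the H1 mean (95% interval 0.50 to 2.07), a 2.43-fold level. This did not pass limma across all genes (adjusted p = 0.102, from 0.0653 to 0.906 over the alternatives that gave a test). The spread of the fit comes from the 2 H1 cultures, which were themselves 0.62 apart. SOX2 stood 0.97 above H1 differentiation 2 alone and 1.60 above differentiation 1 alone.

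The bases before the SOX2 start are shown for comparison with NANOG, since SOX2 was the only member of the OCT4, SOX2 and NANOG core with clear signal. They come from RefSeq, GRCh38.p14, chr3:181711675-181711924, plus strand, 5′ to 3′, with the matches to ACAAAG and ATGCAAA in capitals.

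SOX2: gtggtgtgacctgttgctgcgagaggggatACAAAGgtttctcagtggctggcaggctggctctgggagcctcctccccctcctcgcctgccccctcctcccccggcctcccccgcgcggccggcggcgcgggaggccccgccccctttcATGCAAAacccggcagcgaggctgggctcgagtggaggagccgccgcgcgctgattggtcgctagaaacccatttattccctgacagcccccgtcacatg

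The POU letters stand alone here, at -100 to -94, and the SOX letters lie at -220 to -215. No joined element was found in this window.

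Neural progenitor markers were examined because SOX2 is also expressed by such cells. Of 18 such genes, 13 were tested, 3 were called higher in HUES8 and 0 lower, where 0.49% of all tested genes were called higher. Their median difference was 1.03, or 1.14 under common-median scaling, in which all arrays are brought to the same median, and 1.05 after quantile normalization, against 0.02 over all genes. HES5, a Notch effector of neural progenitors, was called higher (2.12, adjusted p = 0.00431), with 514 and 365 in H1 differentiation 1, 371 and 267 in differentiation 2, and 1924 and 1458 in HUES8. SOX3, the closest relative of SOX2, stood at 226 and 248, 124 and 89.4, and 696 and 540 in the same order, a difference of 1.82 (adjusted p = 0.0311). PAX6, an eye, brain and islet factor, differed by 1.45 (adjusted p = 0.0431). After quantile normalization SOX3 and PAX6 no longer passed (adjusted p = 0.0919 and 0.0784). SOX11 (-0.72) and NEUROD1 (-0.35) of the same list were not called. The summed intensity of the 18 genes overlapped between the lines, 8385 to 19843 in H1 and 17308 to 17945 in HUES8. Much of that sum was DLK1, an imprinted gene of many fetal tissues, at 5296 to 15931 in H1 and 8784 to 11265 in HUES8. Without DLK1, left out after its values were seen, the other 17 genes summed to 3090 to 4075 in H1 and 6680 to 8524 in HUES8, without overlap. The mean log2 value of all 18 genes did not overlap either, 7.24 to 7.62 in H1 and 8.09 to 8.32 in HUES8. SOX1, a defining neural plate marker, had a highest intensity of 0.267. The part of such cells in the SOX2 signal was not tested. Among 14 foregut and stomach genes, SOX2 itself included, 4 were tested and 9 were below 40 on all 6 arrays. Without SOX2, the other 13 genes summed to 526 to 713 in H1 and 628 to 649 in HUES8, so that HUES8 lay inside the H1 range. VSIG1, an epithelial adhesion gene, was called lower (-1.49, adjusted p = 0.0394), and its HUES8 arrays lay below 40, a bound of at least 1.79-fold. That call was lost under common-median scaling and under quantile normalization (adjusted p = 0.0670 and 0.0882). TP63 (0.97) and FOXJ1 (-0.32) were not called.

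LIN28, listed under the older name of LIN28A, had high signal on all 6 arrays. Its intensity was 2135 live and 1756 processed in H1 differentiation 1, 2404 and 1986 in differentiation 2, and 3275 and 2547 in HUES8. Both HUES8 values lay above all 4 H1 values, and the H1 cultures overlapped each other. The difference was 0.49 (95% interval -0.25 to 1.22, adjusted p = 0.745), so neither an equal level nor a 2-fold higher level in HUES8 lies outside the interval. LIN28B, its paralogue, stood at 771 and 765, 1277 and 970, and 1372 and 1126 in the same order, with the H1 and HUES8 samples overlapping and a difference of 0.42 (adjusted p = 0.821). Of 18 genes known as let-7 targets or partners of LIN28, 17 were tested and 1 was called higher. This was PLAGL1, a zinc finger gene that is imprinted (1.77, limma, adjusted p = 0.0113). Over all tested genes, 0.49% were called higher. The median of the list was 0.24, against 0.02 over all tested genes. NRAS stood at 0.97 and MYC at 0.93, and TRIM71 (-0.40) had the lowest difference. None of these last 3 was called.

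L1TD1, an RNA-binding protein derived from a LINE-1 element and a known partner of LIN28 in stem cells, was lowest in HUES8, where LIN28 was highest. Its intensity was 196 live and 229 processed in H1 differentiation 1, 312 and 225 in differentiation 2, and 50.3 and 48.2 in HUES8. Both HUES8 samples were above background but below all 4 H1 samples, and the H1 cultures overlapped. L1TD1 was 3.72-fold lower in HUES8 (-1.89, 95% interval -2.64 to -1.15, limma, adjusted p = 0.00783). L1TD1 was above 40 on all 6 arrays, so it did not enter the test through its H1 arrays alone. Its HUES8 values lay near that mark, however, and the size of the difference depended on the offset (-1.54 with an offset of 50). The call was kept in 8 of 9 alternatives with a test, with adjusted p from 0.00926 to 0.613, and lost with no filter.

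ZFP42, or REX1, a zinc finger gene commonly used as a marker of undifferentiated cells, showed the widest gap of the 7 tested genes. Its intensity was 263 live and 214 processed in H1 differentiation 1, 368 and 274 in differentiation 2, and 19.0 and 26.1 in HUES8. The H1 samples lay far above background, and the HUES8 samples lay near it, 1 of 2 above the olfactory receptor percentile of its array. With the HUES8 arrays set to 40, ZFP42 was at least 4.91-fold lower in HUES8 (measured difference -2.80, 95% interval -3.55 to -2.04, limma, adjusted p = 4.07e-04). ZFP42 entered the test through its H1 arrays alone, so the interval and adjusted p are given as a description. Between the H1 cultures it was 0.40 higher in differentiation 2, without overlap.

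The bases before the starts of ZFP42 and L1TD1 are shown because these genes were called lower together and RefSeq windows exist for both. They lie at chr4:187995521-187995770 and chr1:62194599-62194848 of GRCh38.p14, both on the plus strand, printed 5′ to 3′. There are no capitals because none of the 4 motifs was found in either window.

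ZFP42: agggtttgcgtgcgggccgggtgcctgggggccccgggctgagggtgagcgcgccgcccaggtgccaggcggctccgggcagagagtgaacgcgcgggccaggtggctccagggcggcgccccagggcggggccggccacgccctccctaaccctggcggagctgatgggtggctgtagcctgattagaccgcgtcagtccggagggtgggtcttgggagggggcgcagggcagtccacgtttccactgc

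L1TD1: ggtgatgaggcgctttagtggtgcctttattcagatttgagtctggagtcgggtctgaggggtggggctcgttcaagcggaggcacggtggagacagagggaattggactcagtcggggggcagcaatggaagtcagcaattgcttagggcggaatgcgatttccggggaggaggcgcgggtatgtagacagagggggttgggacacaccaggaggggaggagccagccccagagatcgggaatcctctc

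The windows differ in composition. G and C made up 74.4% of the ZFP42 window, 68.8% of SOX2, 59.6% of L1TD1, 47.6% of NANOG and 43.2% of DPPA4, against a median of 58% over all windows. The count of CG pairs was 23, 20, 12, 4 and 3 in the same order, against a median of 11. Windows were held for 6 of the 10 genes. Of the remaining windows, the DPPA4 window held none of the motifs, and of the 2 windows of TDGF1, which RefSeq names CRIPTO, 1 held ACAATG alone.

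DPPA4, a chromatin-associated protein of pluripotent and germ cells, had the smallest range of the 7 tested genes, 0.85 on the log2(intensity + 20) scale from the lowest to the highest array. Its intensity was 296 live and 246 processed in H1 differentiation 1, 259 and 177 in differentiation 2, and 218 and 155 in HUES8. H1 differentiation 2 overlapped both other cultures, HUES8 lay below H1 differentiation 1, and the processed sample was the lower in each culture. The difference between lines was -0.35 (95% interval -1.10 to 0.39, adjusted p = 0.858). This interval extends past a 2-fold lower level in HUES8.

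LEFTY1, a secreted NODAL inhibitor that NODAL signalling itself induces, was lower in HUES8. Its intensity was 356 live and 321 processed in H1 differentiation 1, 219 and 180 in differentiation 2, and 38.2 and 38.8 in HUES8. The cultures did not overlap, and the HUES8 samples lay just under 40 and above the olfactory receptor percentile. With these set to 40, LEFTY1 was at least 4.66-fold lower in HUES8 (measured difference -2.26, 95% interval -3.06 to -1.46, limma, adjusted p = 0.00401). Like ZFP42, LEFTY1 entered the test through its H1 arrays alone, so its interval and adjusted p are a description. H1 differentiation 2 stood 0.71 below differentiation 1. TDGF1, the CRIPTO co-receptor through which NODAL signals, was near background, with 14.5 and 10.3 in H1 differentiation 1, 23.5 and 14.6 in differentiation 2, and 11.01 and 11.7 in HUES8. No sample exceeded the olfactory receptor percentile of its array, and the lines overlapped.

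Of 21 genes of NODAL signalling, which include LEFTY1 and TDGF1, 9 were tested and 1, LEFTY1, was called lower. Over all tested genes, 1.24% were called lower, and LEFTY1 had entered through its H1 arrays. The median difference of the 9 was -0.60, against 0.02 over all tested genes. It was -0.51 under common-median scaling and -0.59 after quantile normalization. LEFTY2, which is nearly identical in sequence to LEFTY1 so that signal may be shared, stood at 76.1 and 91.1 in H1 differentiation 1, 178 and 153 in differentiation 2, and 48.3 and 44.8 in HUES8. It was lowest in HUES8 like LEFTY1, but the H1 cultures stood in the opposite order, and its difference was not called (-1.06, adjusted p = 0.267). NODAL, the ligand, was too dim to test, at 84.0 and 64.9, 36.4 and 19.2, and 17.4 and 5.32 in the same order. FURIN, a protease that matures NODAL and many other proteins, stood at -1.19. ACVR2B (0.22) and SMAD4 (0.21), a receptor and a signal transducer, had the highest differences, and these were not called.

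PODXL, a sialomucin of the cell surface that carries stem cell epitopes, was highest in H1 differentiation 2. Its intensity was 211 live and 221 processed in H1 differentiation 1, 524 and 515 in differentiation 2, and 154 and 173 in HUES8. Differentiation 2 stood apart and HUES8 was lowest, with no overlap between cultures. HUES8 was 0.96 below the H1 mean (95% interval -1.88 to -0.05), which did not pass (adjusted p = 0.435). Against H1 differentiation 2 alone the difference was -1.56, and against differentiation 1 alone it was -0.37. Of 14 podocyte, mesothelial and endothelial genes, 9 were below 40 on all 6 arrays, among them the endothelial genes CDH5 and KDR. Of the 4 tested, 0 were called at an adjusted p under 0.05, where 1.73% of all tested genes were, so this count describes no difference from other genes.

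Across the 7 tested genes, limma called 3 lower in HUES8 and 0 higher, at an adjusted p under 0.05. The median difference was -0.96, against 0.02 over all tested genes. Over all tested genes, 1.24% were called lower and 1.73% in either direction. SOX2 (higher) and PODXL (lower) were not called, with an unadjusted limma p of 0.0032 and 0.0401. The share of all tested genes under 0.05 before adjustment is not given, so no count is drawn from these. Both HUES8 arrays lay below all H1 arrays for 4 of the 7 genes and above all of them for 2, where 18.5% and 18.8% of all tested genes did so. ZFP42 and LEFTY1 are among the 3 calls and among the 4, and had entered through their H1 arrays. The counts and the median thus rest in part on the filter. With 40 required on all 6 arrays, these 2 genes are not tested and L1TD1 alone was called lower. The calls of ZFP42, LEFTY1 and L1TD1 kept their direction in all alternatives in which they were tested, and they were lost with no filter.

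**Figure D2:**
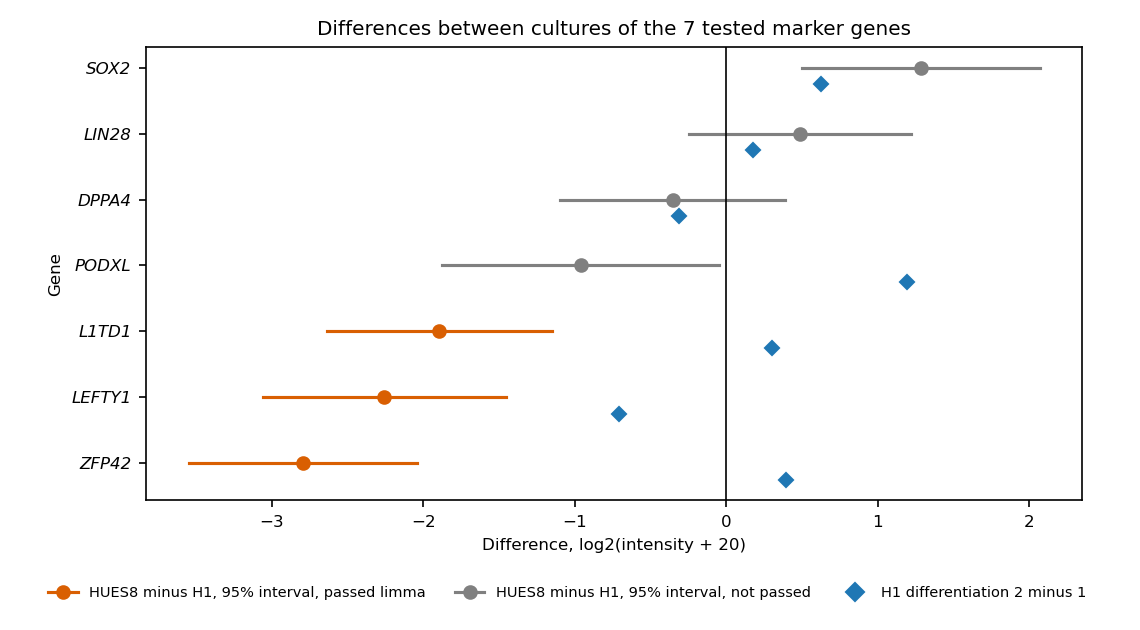
Difference in log2(intensity + 20) of the 7 tested genes, with circles and bars for HUES8 minus the H1 mean and its 95% interval, and diamonds for H1 differentiation 2 minus differentiation 1. L1TD1 (-1.89), LEFTY1 (-2.26) and ZFP42 (-2.80) passed limma, SOX2 lies at 1.28 and did not, and the PODXL diamond lies at 1.19.

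Between the H1 differentiations, which were 1 culture each and have no test, PODXL alone among the 7 genes differed at least 2-fold. It was 2.28-fold higher in differentiation 2 (1.23 between live and 1.15 between processed samples on the log2 scale), where 1.57% of all tested genes were at least 2-fold higher and 2.25% lower. Both samples of differentiation 2 lay above both of differentiation 1 for SOX2, ZFP42 and PODXL and below them for LEFTY1, where 26.9% and 32.5% of all tested genes were above or below. LIN28, L1TD1 and DPPA4 overlapped.

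Live and processed samples of a culture differed by at most 0.50 on the log2 scale for the 7 tested genes. With a block for differentiation, limma called 0 of 7 genes, as it did 0% of all tested genes. Without the block, limma had 0 of 7 genes at an unadjusted p under 0.05, and 192 over all tested genes. With the block there were 2 of 7 (9.65% of all genes). These 2 were DPPA4, with a mean of -0.40 ± 0.13 (SD, n = 3 pairs, limma adjusted p = 0.450), and LIN28, with -0.30 ± 0.05 (adjusted p = 0.510). Both were lower in the processed sample of all 3 pairs, as were 19.8% of all tested genes, and 0 of 7 were higher in all 3, where 13.7% were. ZFP42 (-0.14 ± 0.34) and LEFTY1 (-0.13 ± 0.14) were lower in both H1 pairs and higher in the HUES8 pair, where both samples were dim. SOX2 (-0.01 ± 0.13) and L1TD1 (-0.09 ± 0.32) turned positive under common-median scaling (0.10 and 0.01), SOX2 after quantile normalization as well (0.03). PODXL stood at 0.06 ± 0.08. The 95% intervals of the 7 means reached from -0.70 to 0.35, so that a 2-fold mean difference lies outside each of them. The effect of processing in HUES8 did not pass a test of the difference from that in H1 for any of the 7 genes (limma, 0 called, where 0.261% of all genes were called). Its largest value was 0.58 for ZFP42 (adjusted p = 1.00, interval -0.16 to 1.32).

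**Figure D3:**
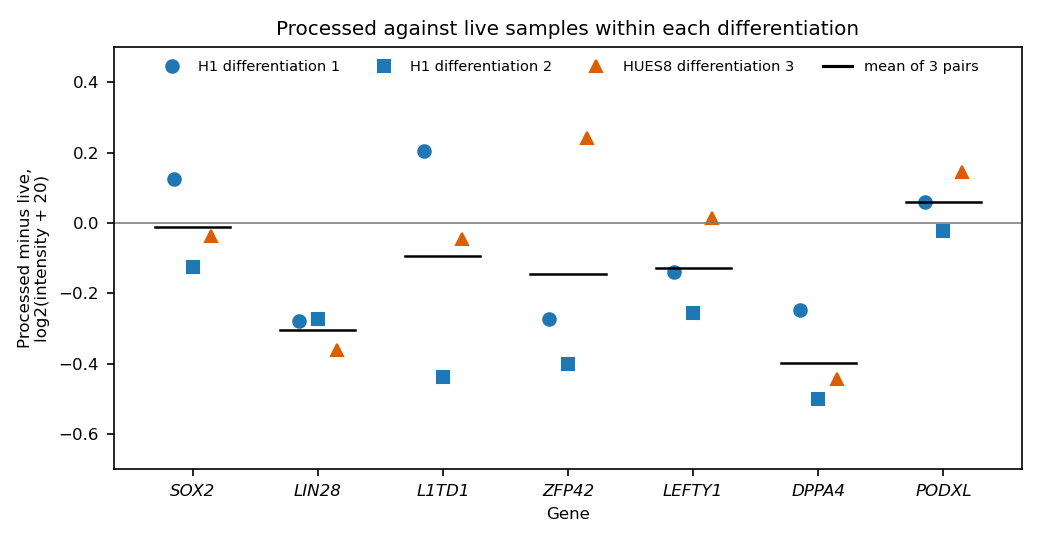
Processed minus live difference in log2(intensity + 20) for the 7 tested genes in each differentiation, with black bars for the mean of 3 pairs. DPPA4 and LIN28 lie below 0 in all 3 pairs, and the points range from -0.50 to 0.24.

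Other pluripotency genes were examined from a list of 39, of which 38 were in the table. Of these, 14 (36.8%) lay below 40 on all 6 arrays, against 53.5% of all genes in the table. A subset of 10, among them DPPA2, DPPA5, GDF3, FGF4, UTF1 and PRDM14, never exceeded the olfactory receptor percentile. Of 20 tested, 1 was called lower and 1 higher, where 1.24% and 0.49% of all tested genes were. The median difference of the 20 was -0.15, against 0.02 over all tested genes. It was -0.06 under common-median scaling and -0.13 after quantile normalization. ZSCAN10, a zinc finger gene that binds near OCT4 and SOX2 targets in mouse stem cells, was lower in HUES8 (-1.53, adjusted p = 0.0362), with 60.5 and 52.2 in H1 differentiation 1, 43.9 and 36.3 in differentiation 2, and 4.64 and 2.38 in HUES8. It reached 40 on 3 of 4 H1 arrays and on neither HUES8 array, and with HUES8 at 40 it was at least 1.13-fold lower. SFRP2, a secreted WNT regulator also made by neural and mesenchymal cells, was higher (1.64, adjusted p = 0.0262), with 255 and 211, 332 and 338, and 991 and 839 in the same order. Both calls were lost after quantile normalization (adjusted p = 0.0562 and 0.0627), and that of ZSCAN10 also under common-median scaling (adjusted p = 0.0565). TBX3, a T-box factor, had the next lowest difference and was not called (-1.47, adjusted p = 0.0706). It also reached 40 on the H1 arrays alone, with 11.5 and 19.1 in HUES8, and with HUES8 at 40 it was at least 1.62-fold lower.

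**Figure D4:**
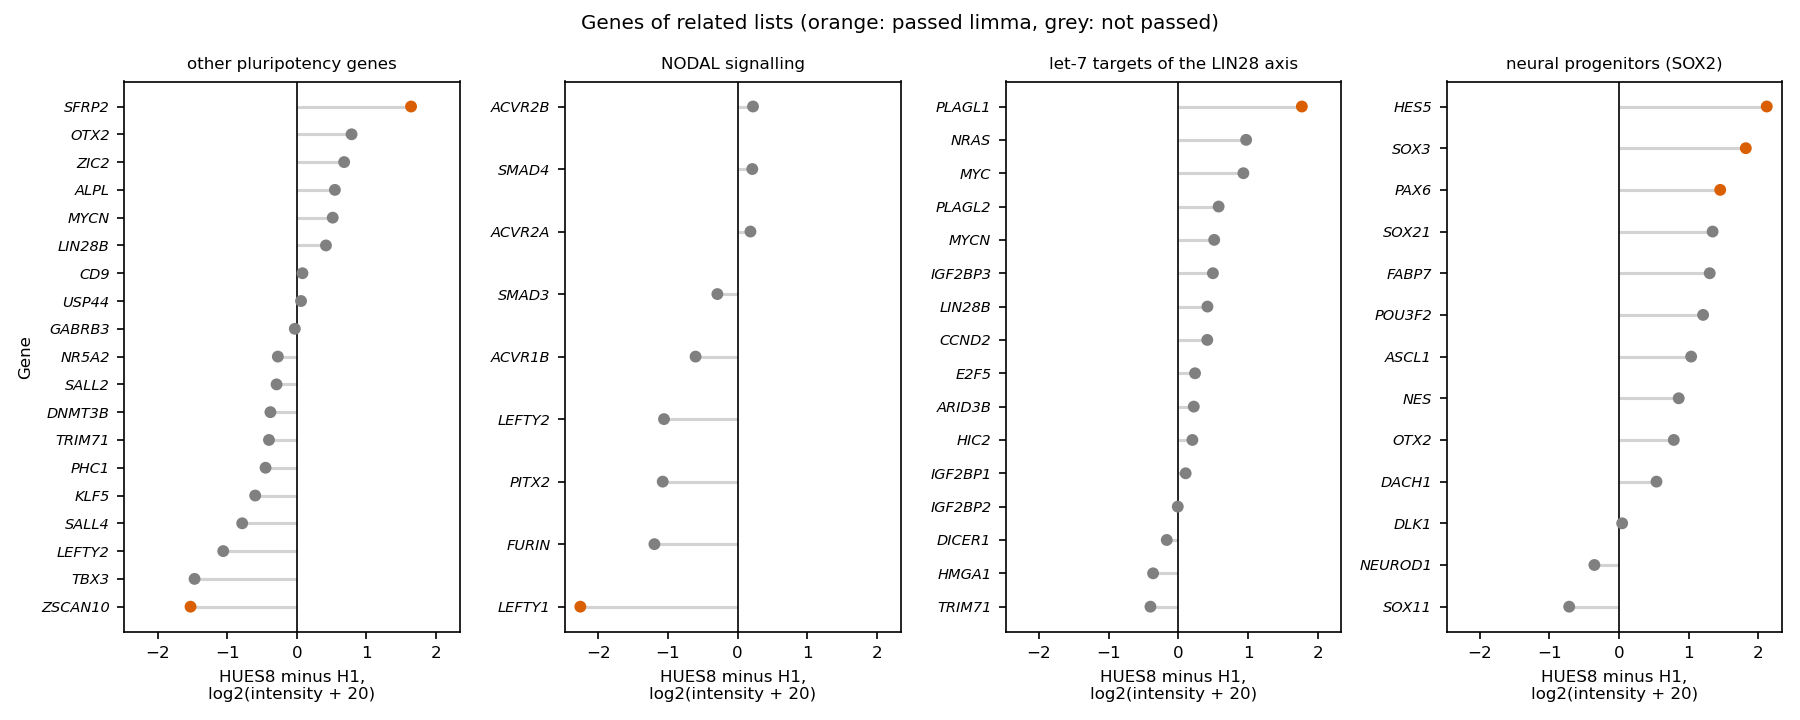
HUES8 minus H1 difference in log2(intensity + 20) for the tested genes of 4 related lists, apart from a few not reported here, with genes that passed limma in orange. The neural progenitor genes lie mostly right of 0, with HES5 at 2.12, and LEFTY1 is the only orange point of NODAL signalling.

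Markers of other lineages were also compared between the lines. Of 10 fetal liver genes, 7 were called lower in HUES8 and 0 higher, where 1.24% of all tested genes were called lower, and 6 were called under common-median scaling and under quantile normalization, FGG being lost in both. Of the 7, 5 (AFP, ALB, FGA, FGB and FGG) were below 40 on both HUES8 arrays and had entered the test through their H1 arrays. The summed intensity of the 10 genes was 15488 to 23879 in H1 and 5019 to 6229 in HUES8. Much of the HUES8 sum was TTR (2457 and 3064) and SERPINA1 (2158 and 2692). These overlapped between the lines and were not called, with differences of 0.02 and -0.34. None of the 10 was below 40 on all H1 arrays, and 6 were below 40 on both HUES8 arrays, including AFP (22.9 and 33.6). The part of these cells in the ZFP42, LEFTY1 and L1TD1 signals was not tested. Of 12 germ cell genes, 8 were below 40 on all 6 arrays, among them DDX4 and DAZL. Of the 3 tested, 0 were called at an adjusted p under 0.05, where 1.73% of all tested genes were. Definitive endoderm genes had 1 of 7 called lower, where 1.24% of all tested genes were. This was FOXA1 (-1.59, limma, adjusted p = 0.0265), a call lost under common-median scaling (adjusted p = 0.0573). SOX17 stood at -0.26 and FOXA2 at -0.17. Of the 7, 6 had a negative difference, and 1, CXCR4, was positive and not called (1.26, limma, adjusted p = 0.0988). Of 13 cell cycle genes 0 were called, where 1.73% of all tested genes were, with a median of -0.16.

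The genes most like each member were those with the highest Pearson correlation of log2(intensity + 20) over the 6 arrays, among about 3496 tested genes whose arrays spanned at least 2-fold. With 6 arrays from 3 cultures these are descriptions. ZFP42 was matched by CHCHD2 (r = 0.999), HAND1 (0.998), a factor of extraembryonic and lateral mesoderm, and ANXA2 (0.997). HAND1 stood at 799 and 525 in H1 differentiation 1, 1068 and 868 in differentiation 2, and 19.7 and 24.6 in HUES8. L1TD1 was matched by CXCL1, a chemokine gene (0.999), MGC72104 (0.997) and LEPREL1 (0.994), and LEFTY1 by C8orf55 (0.999), FAM46B (0.998) and SPTLC3 (0.998). PODXL was matched by COL3A1, a collagen chain gene (0.997), and SOX2 by LOC647150 (0.997) and BHLHB2 (0.997). COL3A1 was also highest in H1 differentiation 2, at 1368 and 1272, against 235 and 242 in differentiation 1 and 133 and 127 in HUES8. Matches of LIN28 and DPPA4, which spanned less than 2-fold, reached only 0.986 and 0.951. Among the members, ZFP42 and L1TD1 correlated at 0.99 and SOX2 and LEFTY1 at -0.98.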

How the data were processed

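RNA of 3 live and 3 processed samples was measured on Illumina Human HT BeadChips. The authors subtracted background and applied rank-invariant normalization in GenomeStudio, and the deposited intensities are linear, with 1 row per symbol; 4.37% of them lay below 0. A table with 6 signal columns was not used, as none of those columns carries the name of a sample. Negative values were replaced by 0, and log2 of the value plus 20, the offset the methods name, was used. The test covered genes that reached 40 on at least 3 arrays (12653 genes, 40.3%).

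Lines were compared on the 3 culture means, processing with the differentiation as a block, and the lines' processing effects on the 3 within-pair differences, with limma 3.58.1 in R 4.3.3 and Benjamini-Hochberg adjustment over all tested genes. The line fits have 1 residual degree of freedom, and the single HUES8 culture is assumed to vary like the H1 cultures. Live and processed samples were parts of the same differentiation per the labels, and their deviations from the group means correlated at 0.79, 0.62 and 0.81 within pairs. The number of arrays limits the precision. The members and lists were chosen with earlier results of these data known. All members were named, and of each list at most the 2 highest and 2 lowest differences plus called genes, with POU5F1P1, genes singled out for their background level or known role, and further genes with values added after they were seen. Symbols were looked up in RefSeq (GRCh38.p14), which held 8 members under the same symbol and 2 under a newer one. Alternatives were the offset, filters, scalings, arrays used, a random block, the block and pairs left out. Single genes of the lists are not reported here but stay in the counts and medians.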

Additional observations from a re-analysis of the deposited data

How the results depend on the processing

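The differences of the 7 tested genes between the lines kept their direction in all alternatives run, and the calls of ZFP42, LEFTY1 and L1TD1 held in all of those with a test except no filter. ZFP42 and LEFTY1 had entered the test through their H1 arrays alone, so their kept calls and direction are a description and add no support. With no filter 0 genes were called in place of 219, 0 of the 7 lower, and the adjusted p of L1TD1, ZFP42 and LEFTY1 became 0.613, 0.613 and 0.743. The cause was not tested. Requiring 40 on all 6 arrays left 80 genes called and 1 of the 7 lower, since ZFP42 and LEFTY1 are then not tested. The count over all genes was 142 with an offset of 50, 111 on live arrays only and 128 on processed arrays only. Scaling arrays to a common median moved the median of all genes from 0.02 to 0.11 for the lines and from -0.03 to 0.07 for processing. Leaving out an H1 culture leaves values with no test for the lines.

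For processing, leaving out a pair gave between 12 and 688 calls over all genes in place of 0 (688 without pair 2, 105 without pair 1, 12 without pair 3), and 0 of the 7 genes. Without the replicate block, limma also called 0 genes, and 192 in place of 1221 had an unadjusted p under 0.05. Uncalled differences changed sign for SOX2 (0.0994 with a common median, 0.0348 after quantile normalization) and L1TD1 (0.0114 with a common median), and with a pair left out the values ranged from -0.0815 to 0.0433 for SOX2 and from -0.242 to 0.0796 for L1TD1. In the difference of processing effects, L1TD1 came to -0.0592 and PODXL to -0.00412 with a common median, and the calls over all genes went from 33 to 9 with an offset of 50, 0 with no filter and 0 with a common median.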
